A study of Arabidopsis thaliana with 4 samples.

Results

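The tetraspanin genes TET2, TET3, TET5, TET7, TET8, TET9 and TET10 of Arabidopsis were followed in rosette leaves floated on flavin adenine dinucleotide (FAD) or on water. Their probe sets were found by gene symbol in the annotation of the array, and the probe set of highest mean signal was to be taken for each gene. Each of the 7 genes had exactly 1 named probe set, so no probe set had to be chosen by its mean signal. The 7 are part of 15 family genes that have a named probe set, out of 17 loci numbered TET1 to TET17, and of 13350 genes named by a probe set in all.

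Tetraspanins are small proteins that cross the membrane repeatedly and expose a short and a long loop on the outer side. They gather partner proteins into patches of the plasma membrane and are found on vesicles that plant cells release. In Arabidopsis, TET8 and TET9 are known from extracellular vesicles that carry small RNAs from leaf cells into the grey mould fungus Botrytis cinerea, and TET8 is the usual marker of these vesicles. Other members act in growth: TET1, also called TRN2 or TORNADO2, is needed for leaf patterning, and TET5 and TET6 together restrain organ size. TET3 has been found at plasmodesmata, the channels between plant cells.

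The leaves came from wild-type plants of the Col-0 accession, 3 weeks old and grown on soil with 16 h of light and 8 h of darkness. Leaves were detached 4 h into the light period and lay for 1 h on 0.1 mM FAD, the cofactor that many oxidoreductases hold, or for 1 h on water, the mock treatment. Both groups were thus detached and floated, and no array of leaves left on the plant was used here. There were 2 biological replicates of each treatment, each on 1 Affymetrix array, 4 arrays in all. The labels do not say whether the replicates came from separate plants or days. The p-values thus reflect no more than the spread among these 4 samples, which may not hold variation between plants or days. The measurement was of whole leaves, in which fewer cells of a type and less RNA per cell cannot be told apart.

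The arrays had been scaled to a common mean and their median signals lay between 118.4 and 133.7. Of the 6 leaf photosynthesis markers looked for, 4 had a named probe set (RCA, LHCB4.1, PRK and SBPASE), with signals from 10600 to 45662 on the 4 arrays. EXPA7, a root hair gene and the one named of 2 root markers, did not exceed 53.31 on any array, and HTR12, a centromeric histone gene and the one named of 3 markers of dividing cells, did not exceed 54.8. On FAD replicate 2 the 9 first-set probe sets of the bacterial spike-in controls were dimmer than on the remaining arrays, with a median factor of 5.39, while the 9 of the second set were brighter there, with a median factor of 1.1. Of 6 ratios of 3' to 5' signal, which read RNA integrity, the 2 for actin did not overlap between treatments. The first-set actin ratio was 23.6 and 27.5 on the FAD arrays, against 30.95 and 33 on the mock arrays. The second-set actin ratio was 4.70 and 5.34 on the FAD arrays, against 5.42 and 5.56 on the mock arrays. With 2 arrays a treatment, a random order separates the treatments with a probability of 0.333. The part of the spike-ins and of the actin ratios in the tetraspanin values was not tested.

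The 7 genes coincide with the family members that were selected on mean signal by the filter used for the test. Their mean log2 signals over the 4 arrays corresponded to geometric means from 98.54, for TET2, to 4768, for TET8. The other 8 genes with a named probe set had geometric means from 5.55 to 42.82, the highest being that of TET13, a gene known from root development. Probe sets were tested when this mean reached the 40th percentile of all probe sets, a geometric mean signal of 63.59. All 7 genes passed this filter, and 0 of the other 8 did. The 7 also passed on the FAD arrays alone and on the mock arrays alone, with TET9 closest to the limit in mock leaves, at a geometric mean of 80.92. A signal depends on the probes as well as on the transcript, so signals of different genes give no order of their transcript levels.

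**Figure D1:**
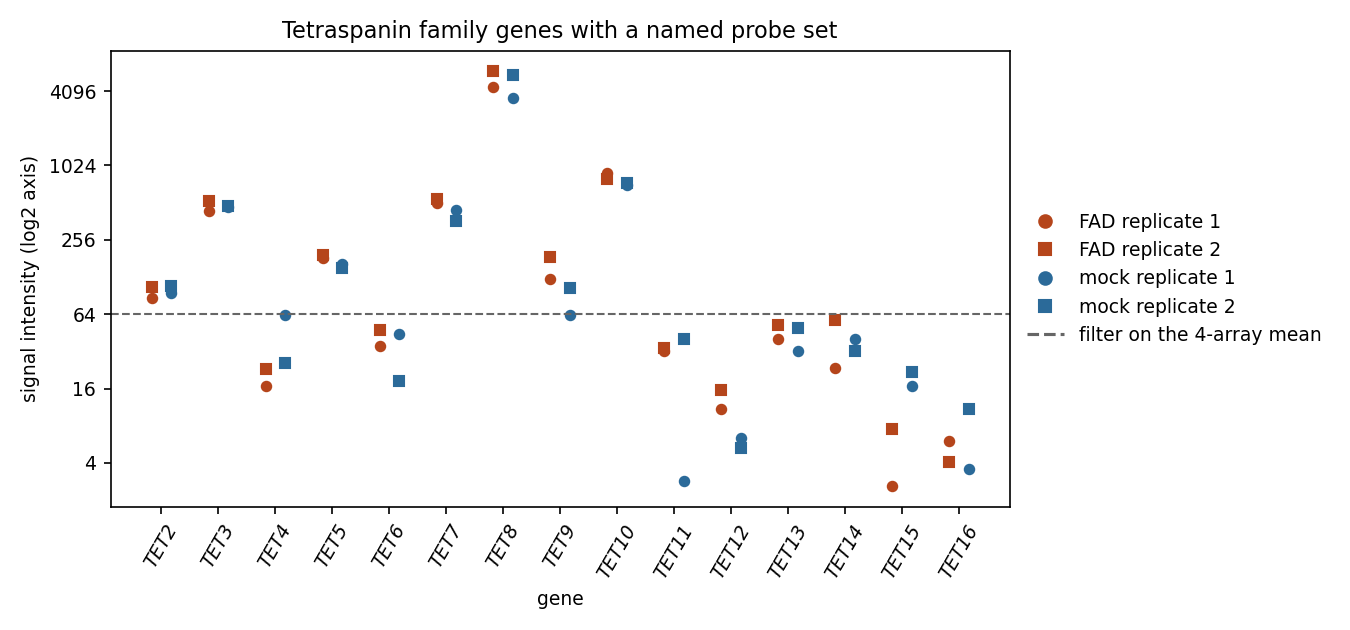
Signal intensity (log2 axis) of the 15 tetraspanin genes with a named probe set, with a point for each of the 4 arrays (FAD left of mock for each gene) and a dashed line at the filter, a geometric mean of 63.59. All points of TET2, TET3, TET5, TET7, TET8 and TET10 lie above the line, TET9 has 1 mock array at 62.49, and the points of the other 8 genes lie below the line; heights of different genes are not comparable.

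FAD against mock asks which tetraspanin transcripts differ after 1 h of external FAD. None of the 7 genes passed the test. Limma called 0 of 7 at a Benjamini-Hochberg adjusted p under 0.05, with adjusted p from 0.698 to 0.998, and 1 of 7, TET9, had an unadjusted p under 0.05. Across the 13648 tested probe sets, limma called 0% higher and 0.0366% lower in FAD leaves after adjustment. At an unadjusted p under 0.05, 3.03% of them were higher and 3.84% lower. With 2 arrays a treatment, the smallest two-sided p of an exact permutation test is 0.333, and it was not used.

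By array, 4 of the 7 genes (TET5, TET7, TET9 and TET10) had both FAD signals above both mock signals, where 22% of all tested probe sets did. For 3 genes (TET2, TET3 and TET8) the treatments overlapped. No member had both FAD signals below both mock signals, which 15% of all tested probe sets had. The log2 difference, FAD minus mock, was above 0 for 6 of 7 genes, against 57.5% of all tested probe sets. The median over the 7 genes was 0.20, beside 0.05 for the tested probe sets as a whole, whose standard errors had a median of 0.23. With median centring the 7 genes had a median of 0.11, beside -0.04 for the tested probe sets as a whole. Median centring moves every log2 difference by the same amount, so it could not change the gap between these medians.

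**Figure D2:**
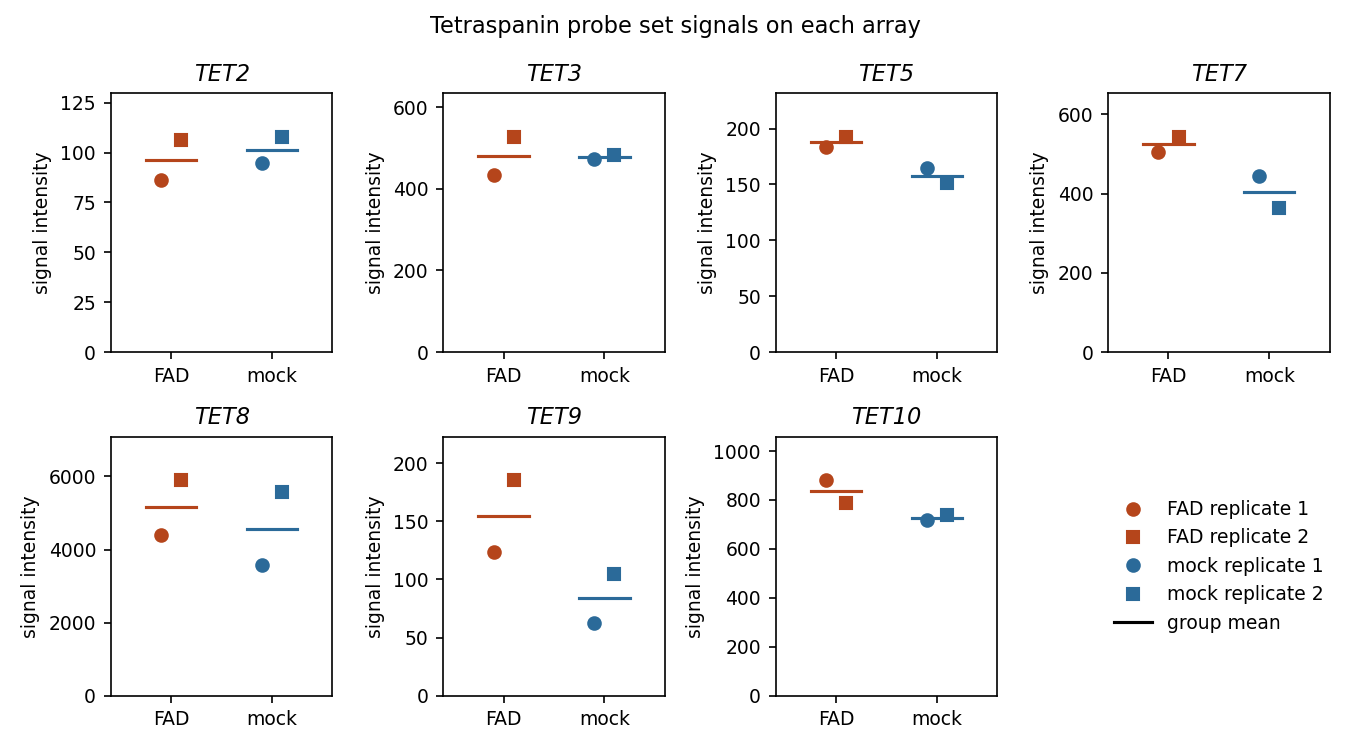
Signal intensity on each array for the 7 genes, with FAD left of mock, circles for replicate 1, squares for replicate 2 and a line at the mean of each treatment; each panel has its own axis from 0. The points of TET5, TET7, TET9 and TET10 do not overlap between treatments, and in TET8 and TET9 replicate 2 lies above replicate 1 in both treatments.

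TET9 (AT4G30430) and TET8 (AT2G23810) are the members known from extracellular vesicles. The TET9 signal was 123.9 and 185.4 in FAD leaves, against 62.49 and 104.8 in mock leaves. Both FAD signals were thus above both mock signals, but FAD replicate 1 stood only 1.18 times above mock replicate 2. The mean was 154.7 ± 43.4 in FAD leaves and 83.6 ± 29.9 in mock leaves (SD, n = 2 each). The ratio of geometric means, FAD over mock, was 1.87, with a 95% confidence interval from 1.04 to 3.38. On the log2 scale the difference was 0.91 with a standard error of 0.36, which did not pass in limma (unadjusted p = 0.0402, Benjamini-Hochberg adjusted p = 0.698). A log2 difference of this size or more in either direction was found in 1.91% of tested probe sets. TET9 also had the widest standard error of the 7 genes. Without FAD replicate 2, the array with the dim spike-ins, its log2 difference was 0.62 (limma unadjusted p = 0.221), and without mock replicate 1 it was 0.53 (limma unadjusted p = 0.207).

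TET8 had signals of 4409 and 5901 in FAD leaves, against 3569 and 5566 in mock leaves. Both replicate 1 arrays were lower than both replicate 2 arrays, and the treatments overlapped. The means were 5155 ± 1055 in FAD leaves and 4568 ± 1412 in mock leaves (SD, n = 2 each). Its log2 difference was 0.19 ± 0.25 (SE), with a 95% confidence interval from -0.38 to 0.77 (limma adjusted p = 0.911). The interval in ratios of FAD over mock runs from 0.767 to 1.71, so that a difference of 2-fold in either direction lies outside it. Without FAD replicate 2 the log2 difference of TET8 was -0.02, and without mock replicate 1 it was -0.13; without FAD replicate 1 it was 0.40, without mock replicate 2 it was 0.51, and with median centring it was 0.10.

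TET5 (AT4G23410), the member that restrains organ size together with TET6, had signals of 183.9 and 192.8 in FAD leaves, against 164.3 and 151.3 in mock leaves. These did not overlap, and the spread within each treatment was small, with means of 188.4 ± 6.29 in FAD leaves and 157.8 ± 9.18 in mock leaves (SD, n = 2 each). The log2 difference of 0.26 ± 0.23 (SE) did not pass in limma (adjusted p = 0.864). Its 95% confidence interval ran from -0.28 to 0.80, and with median centring the difference was 0.17. The standard error comes from the moderated variance, which draws on probe sets of like brightness and not only on these 4 values. TET6 (AT3G12090) was below the filter, with signals of 35.29 and 47.2 in FAD leaves, against 44.48 and 18.49 in mock leaves, and was not tested.

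TET3 (AT3G45600), the member found at plasmodesmata, had signals of 434.8 and 527.6 in FAD leaves, against 473.5 and 481.6 in mock leaves. The mock arrays lay between the FAD arrays. The log2 difference was 0.0042 with a standard error of 0.19 and a 95% confidence interval from -0.45 to 0.46 (limma adjusted p = 0.998), and its sign turned with quantile normalization, to -0.03, and with median centring, to -0.09. In ratios of FAD over mock the interval runs from 0.733 to 1.37.

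Of the remaining 3 genes, TET7 (AT4G28050) had the largest difference. Its signals were 503.9 and 543.8 in FAD leaves, against 444.9 and 364.4 in mock leaves, without overlap. The ratio of geometric means, FAD over mock, was 1.3, a log2 difference of 0.38 ± 0.20 (SE) with a 95% confidence interval from -0.08 to 0.84 (limma unadjusted p = 0.0939, adjusted p = 0.766). Without mock replicate 2 the log2 difference of TET7 was 0.23. Signals of TET10 (AT1G63260) were 881.2 and 788.7 in FAD leaves, against 717.3 and 739.1 in mock leaves, again without overlap. Its log2 difference of 0.20 ± 0.17 (SE) had a 95% confidence interval from -0.21 to 0.60 (limma adjusted p = 0.863). It was 0.12 without FAD replicate 1 and 0.11 with median centring.

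TET2 (AT2G19580) had signals of 86.43 and 106.5 in FAD leaves, against 94.86 and 108 in mock leaves, which overlapped. The log2 difference was -0.08 ± 0.30 (SE), with a 95% confidence interval from -0.77 to 0.62 (limma adjusted p = 0.974). It turned to 0.07 without FAD replicate 1 and to 0.02 without mock replicate 2.

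**Figure D3:**
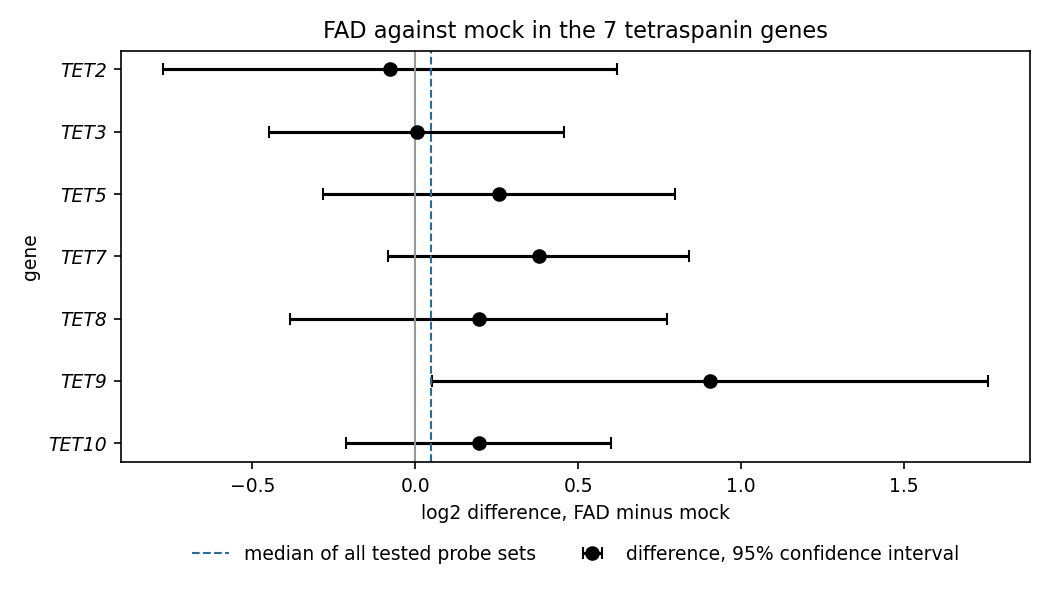
Log2 difference, FAD minus mock, of the 7 genes (points) with 95% confidence intervals from limma (bars); the solid line marks 0 and the dashed line the median of all tested probe sets, 0.05. The intervals of 6 genes include 0, and that of TET9 runs from 0.05 to 1.76.

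The members also varied between replicates of a treatment. TET9 was higher on replicate 2 than on replicate 1 by a log2 difference of 0.58 in FAD leaves and 0.75 in mock leaves. For TET8 the corresponding differences were 0.42 and 0.64. Among all tested probe sets the median size of this difference was 0.23 in FAD leaves and 0.24 in mock leaves. TET8 and TET9 thus differed between replicates by more than these medians, in the same direction under both treatments. So did AT1G69840, AT5G23750, AT5G51570 and SWEET11, genes outside the family that are named below, with replicate 2 lower in AT5G51570 and SWEET11. The 3 tested genes of extracellular vesicles and secretion did not. The medians cover tested probe sets of any brightness. TET2 and TET3 also exceeded the median in FAD leaves, and TET7 did so in mock leaves. For TET2, TET3 and TET8 the difference between replicates was larger, in both treatments, than that between treatments.

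The other members differed less between replicates. TET2 was higher on replicate 2 by 0.30 in FAD and 0.19 in mock leaves, and TET3 by 0.28 in FAD and 0.02 in mock leaves, on the log2 scale. TET5 had 0.07 in FAD and -0.12 in mock leaves, TET7 had 0.11 in FAD and -0.29 in mock leaves, and TET10 had -0.16 in FAD and 0.04 in mock leaves. The direction was therefore shared by both treatments in 4 of the 7 genes, in each case with replicate 2 higher. The share of all tested probe sets with a common direction was not counted, so this is not read as a trait of the members. Across probe sets, the deviations of arrays with the same number correlated at 0.219. The labels do not say what arrays of one replicate number share.

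**Figure D4:**
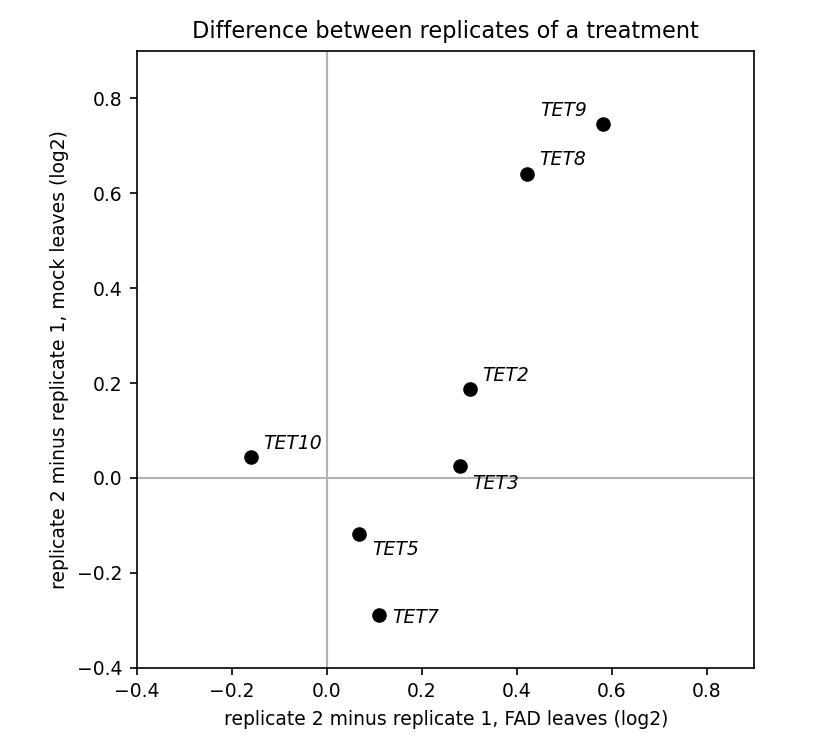
Log2 difference between replicate 2 and replicate 1 in FAD leaves (horizontal axis) and in mock leaves (vertical axis), with 1 point for each of the 7 genes. TET8 and TET9 lie at the upper right, at 0.42 and 0.58 in FAD leaves, with 0.64 and 0.75 in mock leaves, while TET5, TET7 and TET10 have opposite signs in the treatments.

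The rest of the family gave dim signals. TET4, TET6, TET11, TET12, TET13, TET14, TET15 and TET16 ranged from 2.6 to 62.66 over the 4 arrays and were not tested. TET11 and TET12 are known from the sperm cells of pollen. TET11 (AT1G18520) had signals of 32.41 and 33.91 in FAD leaves, against 2.86 and 40.23 in mock leaves, which overlapped. TET12 (AT5G23030) had 10.92 and 15.59 in FAD leaves, against 6.4 and 5.25 in mock leaves. Of these 8 genes 1 had both FAD signals above both mock signals (TET12), 2 had both below (TET4 and TET15) and 5 overlapped. Of all 9098 probe sets below the filter, 22.8% had both FAD signals above and 12.1% had both below.

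Signals of TET4 (AT5G60220) were 16.74 and 22.82 in FAD leaves, against 62.66 and 25.61 in mock leaves. Those of TET15 (AT5G57810) were 2.6 and 7.55 in FAD leaves, against 16.76 and 21.86 in mock leaves. Among these dim genes replicates of one treatment differed by up to 3.81 on the log2 scale, for TET11 in mock leaves, and no difference is drawn from them. TET13 (AT2G03840) had 40.6 and 52.29 in FAD leaves, against 32.28 and 49.06 in mock leaves. TET14 (AT2G01960) had 23.32 and 57.57 in FAD leaves, against 40.22 and 32.28 in mock leaves, and TET16 (AT1G18510) had 6.03 and 4.03 in FAD leaves, against 3.59 and 10.87 in mock leaves. TET1 and TET17 had no named probe set and were not analysed here.

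Genes of the membranes and vesicles in which tetraspanins are found were covered in part. Of 17 genes listed for extracellular vesicles and secretion, a named probe set was found for 3. In limma 0 of these 3 passed, with 0 at an unadjusted p under 0.05. Over all tested probe sets limma called 0% higher and 0.0366% lower after adjustment. At an unadjusted p under 0.05 the shares were 3.03% higher and 3.84% lower. ARA6 (AT3G54840), a small GTPase of endosomes, had signals of 1018 and 1052 in FAD leaves, against 1097 and 1081 in mock leaves. Both FAD signals were thus below both mock signals, as in 15% of all tested probe sets. The log2 difference of ARA6 was -0.07 (limma adjusted p = 0.955), which was -0.16 with median centring. AT2G42520 and AT3G58510 had log2 differences of -0.20 and -0.0078; with 1 array left out the first ran from -0.31 to -0.09, and the second took either sign. All 3 were below 0 with the 4 arrays, where 57.5% of all tested probe sets were above 0. The median of the 3 was -0.07, beside 0.05 over all tested probe sets.

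Of 11 listed genes of plasma membrane microdomains, which covers remorins, flotillins and hypersensitive-induced reaction proteins, a named probe set was found for 7, of which 6 were tested. Among all tested probe sets limma called 0% higher and 0.0366% lower after adjustment, with 3.03% higher and 3.84% lower before it. In limma 0 of the 6 passed after adjustment, and 1 had an unadjusted p under 0.05. That gene, AT5G64870, had signals of 796.3 and 964 in FAD leaves, against 681.7 and 551.4 in mock leaves, without overlap. Its log2 difference was 0.52 ± 0.20 (SE, limma unadjusted p = 0.0353, adjusted p = 0.674). With 1 array left out the difference ran from 0.36 to 0.67. With median centring it was 0.43 (limma unadjusted p = 0.0753). AT1G69840 had a log2 difference of 0.23, AT3G61260 of -0.13 and AT5G23750 of -0.17. With 1 array left out AT1G69840 ran from 0.08 to 0.38 and AT3G61260 from -0.24 to -0.01, and AT5G23750 took either sign. The 6 divided into 3 above and 3 below 0, with a median of -0.0048, where 57.5% of all tested probe sets were above 0. None of the 12 plasmodesmata genes and 4 tobamovirus host factor genes listed had a named probe set.

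Of the 8 tissue and cell type markers with a named probe set, 5 (RCA, LHCB4.1, FMA, EXPA7 and HTR12) had both FAD signals above both mock signals, 0 had both below and 3 overlapped. Both FAD signals were above in 22% of tested probe sets and in 22.8% of those below the filter. Both were below in 15% and 12.1%. No shift of the markers is drawn from this count. EXPA7 had signals of 46.09 and 53.31 in FAD leaves, against 44.86 and 6 in mock leaves, and HTR12 had 54.8 and 35.97 in FAD leaves, against 24.83 and 21.13 in mock leaves, both below the filter. The log2 differences of RCA and LHCB4.1 were 0.16 and 0.19 (limma adjusted p = 0.865 and 0.839). FMA, a transcription factor gene of guard cells, had signals of 160.3 and 255.9 in FAD leaves, against 137.1 and 133.3 in mock leaves. FMA was thus higher on both FAD arrays without passing, with a log2 difference of 0.58 ± 0.29 (SE, limma adjusted p = 0.763). It was the only one of 3 listed guard cell markers with a named probe set, and the part of these markers in the tetraspanin values was not tested. SWEET11, a sugar exporter gene of the phloem and the only one of 3 listed phloem markers with a named probe set, had a log2 difference of -0.02 (limma adjusted p = 0.994).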

How the data were processed

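RNA of 4 samples, 2 of FAD-treated and 2 of mock-treated leaves, was measured on 1-colour arrays. The deposited values are linear signal intensities, 1 per probe set and array, made by the authors with GCOS, the array maker's software, per the submitters' processing notes; the version, summary method and genome build were not given in the sources used here. Their 2% trimmed means differed by 0.000764% between arrays, so the deposited scaling was kept; it cannot show a change in total mRNA. Calls of detection were not used here.

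Signals were log2 transformed with nothing added. The 64 control probe sets were left out, and 13648 of 22746 probe sets passed the filter at the 40th percentile. FAD was compared with mock in limma 3.58.1 (R 4.3.3) by lmFit and eBayes (trend = TRUE), treatment being the only term (2 residual and 5.43 prior degrees of freedom), and Benjamini-Hochberg adjustment over all tested probe sets. The fit was tested on simulated data. Symbols came from the platform annotation, which gave 1 gene for 13513 probe sets, several for 503 and none for 8794 (controls included), and were updated through their gene IDs in the TAIR10.1 table, which held 13436. The number of arrays limits the precision.

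All 7 genes, the other named family genes and up to 4 tested genes of each further list, by absolute moderated t, are named. Members and lists were chosen with earlier results of these data known. Each gene had 1 probe set, so the planned use of a second one could not be run. Alternatives were quantile normalization, median centring, 32 added before the log, no filter, one at the 60th percentile, eBayes without the trend or with robust variances, a replicate block and leaving out each array.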

Additional observations from a re-analysis of the deposited data

How the results depend on the processing

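Over 12 alternatives, 0 of the 81 values of the 7 genes passed in limma, with a lowest adjusted p of 0.203, that of TET9 with the replicate block. TET5, TET7, TET9 and TET10 stayed above 0 in every alternative in which they were tested; with the filter at the 60th percentile TET2, TET5 and TET9 were not tested. TET3 turned to -0.0854 with median centring and -0.0268 with quantile normalization. With 1 array left out, log2 differences ran from -0.2278 to 0.0731 for TET2, -0.1353 to 0.1438 for TET3, -0.1259 to 0.5149 for TET8, 0.5325 to 1.2784 for TET9, 0.1973 to 0.3161 for TET5, 0.2348 to 0.5228 for TET7 and 0.1152 to 0.2751 for TET10. The unadjusted p of TET9 was under 0.05 in 6 of 11 alternatives and not with quantile normalization (0.0745), median centring (0.0585), no filter (0.0601), or without FAD replicate 2 (0.221) or mock replicate 1 (0.207). The median of the 7 genes was 0.1055 with median centring, beside -0.0401 over all tested probe sets, a shift that is the same for every probe set. With 1 array left out the median of the 7 genes was between 0.1736 and 0.2907. Of the vesicle and microdomain genes, 9 in most alternatives, 0 passed in any, and the marker genes were tested in the main setting only; AT5G51570 turned to -0.0314 with median centring, and with 1 array left out it ran from -0.2353 to 0.3518, AT2G45820 from -0.182 to 0.0464, AT3G58510 from -0.1012 to 0.0856 and AT5G23750 from -0.4459 to 0.112.

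Over all tested probe sets limma called 0 higher and 5 lower. Median centring gave 18 lower, testing every probe set gave 2, the stricter filter gave 2 and eBayes without the trend gave 0; leaving out 1 array gave from 1 to 4 lower and from 0 to 1 higher. At an unadjusted p under 0.05 the split was 414 higher and 524 lower, and 237 higher and 771 lower with median centring. With the replicate block 36 were called higher and 153 lower. In that paired fit TET9 had a log2 difference of 0.91 with a 95% confidence interval from 0.26 to 1.55 (limma unadjusted p = 0.00939, adjusted p = 0.203), and TET8 one of 0.19 with an interval from -0.10 to 0.49. Across probe sets, the deviations of arrays with the same number correlated at 0.219, but the labels give the numbers no shared source. The cause of these changes was not tested. With 2 arrays a treatment, dim signals and small differences cannot be resolved.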
